A study of Mus musculus with 2 samples.

Results

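Mature Ccr7 dendritic cells are the dendritic cells of a tumour that have taken up material, matured and switched on CCR7, the receptor that guides them to lymph nodes. They were picked from 2 single-cell RNA libraries of mouse tumours by their own transcripts. A barcode with at least 1000 UMIs (unique molecular identifiers, 1 for each counted RNA molecule) was a member with at least 2 UMIs of Ccr7, at least 2 of Fscn1, Ccl22 and Cacnb3 together, and at most 1 of the T cell genes Cd3e, Cd3d and Cd3g. The macrophage genes C1qa, C1qb and C1qc together had to stay under 40 per 10000 UMIs. The rule found 43 members among 5993 TMEM16F KO barcodes and 49 among 5253 vector control barcodes, 92 of 11246 in all. These genes chose the cells, so their levels below are a description.

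The tumours were 21 days old and had been grown in mice from the colorectal cancer line MC38, itself of mouse origin. The TMEM16F KO library came from tumours of MC38 cells without TMEM16F, a scramblase encoded by Ano6 that, when calcium rises, exposes phosphatidylserine at the cell surface. The vector control library came from tumours of MC38 cells given the vector. Per the design text the deletion is in the engrafted cells, so the dendritic cells described here come from the host mice, which received no treatment. Mouse strain, age and number per library are left unstated by the labels. With 1 library per group nothing here is replicated, and no p-value is given. Cells of 1 library share tumour and preparation and are not replicates. Intervals are at 95% and cover the error of counting alone.

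The 43 TMEM16F KO members summed to 407955 UMIs (median 8796 UMIs and 2201 genes per cell) and the 49 vector control members to 489445 UMIs (median 7876 UMIs and 2068 genes). The whole TMEM16F KO library held 49777630 UMIs (median 6193 per barcode) and the vector control library 46338994 (median 6236). The deepest member of each library carried 6.99% of the members' UMIs in TMEM16F KO and 12.2% in vector control, where it had 59856 UMIs against 28618 in the next. The libraries shared 10 barcodes, and none of these was a member. Levels are given as CPM, the UMIs of a gene summed over the members of a library and scaled to a common total. With 3′ counting a UMI stands for a molecule whatever the transcript's length.

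Dendritic cells sample antigen in tissues and show it to T cells on MHC molecules. On maturation they stop taking up material, raise co-stimulatory ligands and cytokines, rebuild their actin skeleton and follow the lymphatic ligands of CCR7. In tumours such cells also carry ligands that restrain T cells, such as PD-L1 and PD-L2, and are known as mature dendritic cells enriched in immunoregulatory molecules. Conventional dendritic cells of both branches, cDC1 and cDC2, can enter this state, and NF-kappaB transcription factors drive much of it.

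The 4 marker genes were read in most members of both libraries. Ccr7 (chr11:99144196-99155077, minus strand, GRCm38) had a lowest, median and highest value of 2.82, 22 and 97.8 UMIs per 10000 in TMEM16F KO members and 0.668, 18.5 and 57.8 in vector control members. Fscn1 (chr5:142960343-142973185, plus strand), which encodes the actin-bundling protein fascin of dendritic cell processes, had 0, 5.04 and 62.5 in TMEM16F KO and 0, 7.34 and 86.8 in vector control. Ccl22 (chr8:94745590-94751699, plus strand), a chemokine that draws CCR4-bearing T cells, had 0, 3.57 and 33.7 in TMEM16F KO and 0, 4.5 and 88.0 in vector control. Cacnb3 (chr15:98630840-98644529, plus strand), a calcium channel subunit, had 0, 1.57 and 16.4 in TMEM16F KO and 0, 1.22 and 15.2 in vector control. The ranges of the libraries overlapped for all 4. Fscn1 was read in 26 of 43 TMEM16F KO and 36 of 49 vector control members, Ccl22 in 39 TMEM16F KO and 46 vector control members, and Cacnb3 in 26 TMEM16F KO and 28 vector control members.

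No TMEM16F KO and 3 vector control members had exactly 2 Ccr7 UMIs, and 3 TMEM16F KO and 2 vector control barcodes that met the other criteria had only 1. The marker sum was exactly 2 in 5 members of each library, and 6 TMEM16F KO and 7 vector control barcodes with a sum of 1 fell outside, as did 42 TMEM16F KO and 34 vector control barcodes with none of these UMIs. The T cell limit left out 23 TMEM16F KO and 15 vector control barcodes, and the C1q limit 6 TMEM16F KO and 9 vector control barcodes. Of the members, 12 in TMEM16F KO and 13 in vector control had 1 Cd3 UMI and so stood at that limit.

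Markers of dendritic cells outside the rule were read unevenly in the members. Cst3, a protease inhibitor made in large amounts by dendritic cells, was read in every member, with a lowest, median and highest value of 3.27, 253 and 470.0 UMIs per 10000 in TMEM16F KO and 9.03, 198 and 757 in vector control. Flt3, a lineage marker, was read in 17 of 43 TMEM16F KO and 16 of 49 vector control members. Of 12 lineage genes, 1 was at least 2-fold higher and 2 were lower than in dendritic cells without Ccr7, a comparison described below. Some defining markers of other cells were at 0 in all 92 members: Cd4 of helper T cells, Klrb1c and Eomes of NK cells, Cd79a and Ms4a1 of B cells, Siglech of plasmacytoid dendritic cells, S100a9 and Cxcr2 of neutrophils, and Aire of the other CCR7-bearing antigen-presenting cells. The 13 T cell markers, 2 of them at 0, summed to 103 CPM in TMEM16F KO and 59.3 CPM in vector control members, against 8413 CPM in TMEM16F KO and 7496 CPM in vector control T cells. The 9 B cell markers, 4 of them at 0, summed to 27.0 CPM in TMEM16F KO and 30.6 CPM in vector control members. The 8 plasmacytoid markers, 5 of them at 0, summed to 343 CPM in TMEM16F KO and 425 CPM in vector control members, most of it Bst2, which many cells express. The 9 monocyte and neutrophil markers, 3 of them at 0, summed to 427 CPM in TMEM16F KO and 176 CPM in vector control members. The 5 mast cell and basophil markers, 3 of them at 0, summed to 4.90 CPM in TMEM16F KO and 0 CPM in vector control members. The 10 NK markers, 2 of them at 0, summed to 794 CPM in TMEM16F KO and 382 CPM in vector control members, against 7427 CPM in TMEM16F KO and 6208 CPM in vector control T cells. The 13 macrophage markers, all of them read in members, summed to 3503 CPM in TMEM16F KO and 2783 CPM in vector control members, against 45999 CPM in TMEM16F KO and 34164 CPM in vector control C1q macrophages. The 10 stromal markers came to 12.3 CPM in TMEM16F KO and 155 CPM in vector control members, and all 44 Bgn UMIs lay in the deepest vector control member. That cell also held all 31 UMIs of Sox9 and 60 of 61 UMIs of Tm4sf1. The comparison of the libraries below was therefore also computed without the deepest member of each. The deepest TMEM16F KO members, of 28496, 25670 and 21299 UMIs, held 10, 11 and 6 Ccr7 UMIs and none of Fscn1 or Cacnb3. A vector control member of 19752 UMIs held 2 Ccr7 UMIs and none of Fscn1 or Cacnb3. Leaving out 1 member per library keeps most of these cells.

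**Figure D1:**
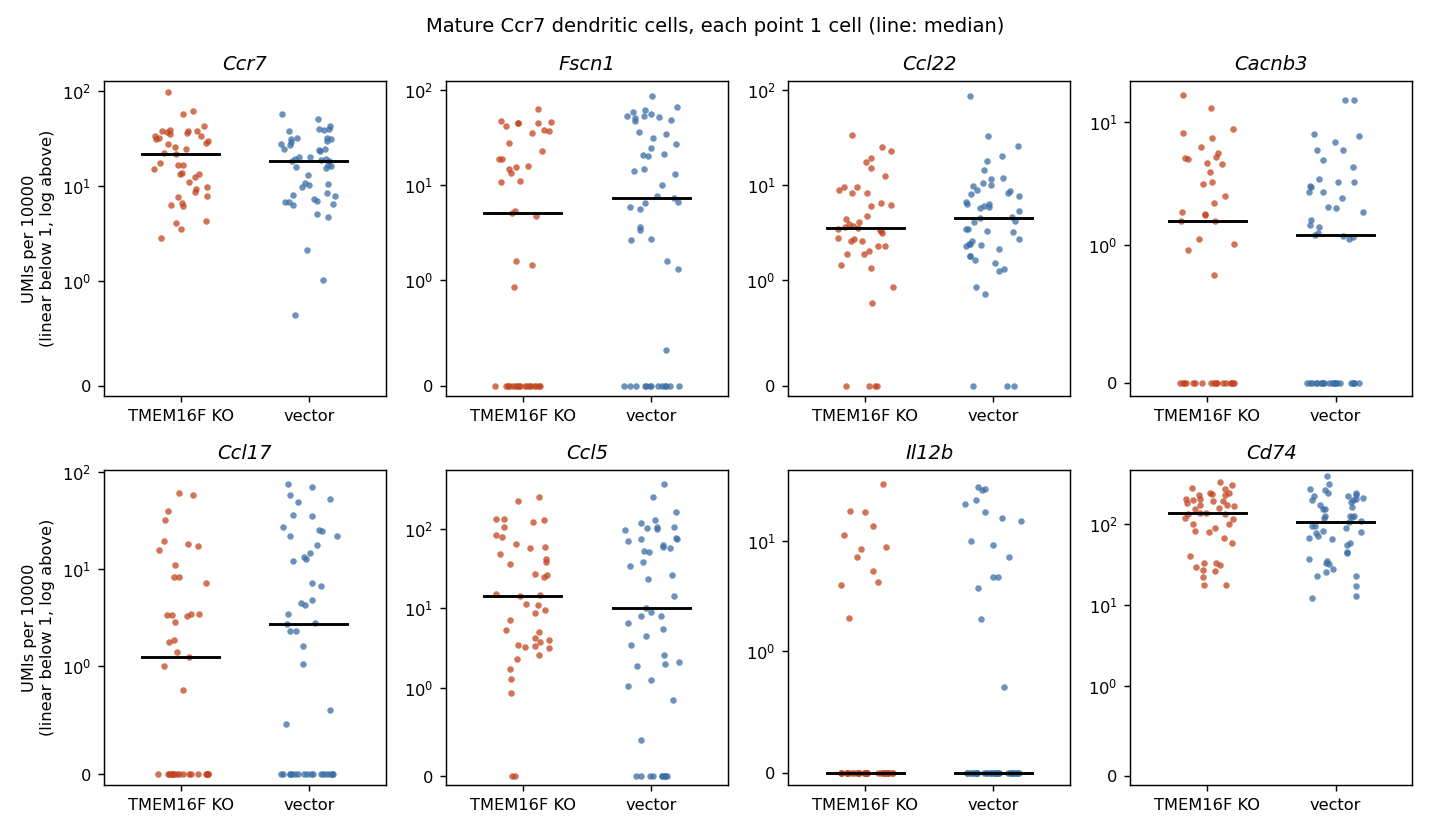
UMIs per 10000 of 8 genes in each mature Ccr7 dendritic cell (vertical axis, linear near 0 and logarithmic above), with 43 TMEM16F KO cells at the left and 49 vector control cells at the right of each panel; each point is a cell and the line is the median. Ccr7 is above 0 in every cell by the rule, Il12b has a median of 0 in both libraries, and the points of the libraries overlap for all 8 genes.

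The members made up 0.760% (0.551 to 1.02) of TMEM16F KO barcodes with at least 1000 UMIs and 1.03% (0.761 to 1.36) of those of vector control. The ratio of these shares was 0.740 (0.480 to 1.14). Of all dendritic cells found in each library they were 29.3% (22 to 37.3, 43 of 147) in TMEM16F KO and 37.4% (29.1 to 46.3, 49 of 131) in vector control, a ratio of 0.782 (0.507 to 1.20). Both intervals reach 1, so a difference in share was not detectable with this number of cells. Intervals this wide do not show equal shares either.

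What distinguishes the mature state was read against dendritic cells without Ccr7 of the same tumours, 104 in TMEM16F KO and 82 in vector control. These had no Ccr7 UMI, at least 2 UMIs over Flt3, Zbtb46, Xcr1, Clec9a, Cd209a and Batf3, high MHC class II and the same T cell and C1q limits. B cell markers summed to 1351 CPM in TMEM16F KO and 64.7 CPM in vector control cells of this class. Its deepest cell carried 3.60% of the class's UMIs in TMEM16F KO and 8.99% in vector control, where it had 90293 UMIs. A gene counts here when it was at least 2-fold higher, or lower, in the members of both libraries and had at least 20 UMIs. Of 8234 genes measured, 365 (4.43%) were higher in the members and 598 (7.26%) were lower. The members were chosen by transcripts of the same cells, so these folds, the members' CPM over that of dendritic cells without Ccr7, describe them and are no test.

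Genes of movement and cell shape were mostly higher in the members. Of 20 migration and cytoskeleton genes, 16 were higher and none lower, and 3 of the 16 were rule genes. Ccr7 was at least 779-fold in TMEM16F KO and at least 587-fold in vector control, a bound set by the rule. Fscn1 was 471-fold (160.2 to 2289.9) in TMEM16F KO and 93.0-fold (58.5 to 158) in vector control, on 3 TMEM16F KO and 18 vector control UMIs in the dendritic cells without Ccr7. Mreg, a melanosome transport protein, was 87.6-fold in TMEM16F KO and 65.7-fold in vector control. Tbc1d4, a regulator of vesicle traffic, was 8.70-fold in TMEM16F KO and 11.9-fold in vector control, and Samsn1, an adaptor that dampens receptor signalling, 8.30-fold in TMEM16F KO and 13.4-fold in vector control. Marcksl1, an actin regulator, was 6.82-fold in TMEM16F KO and 5.86-fold in vector control.

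Chemokines and cytokines of T cell attraction and priming were among the higher genes. Of 16 chemokines 4 were higher, among them the rule gene Ccl22, and none lower. Ccl22 was 42.0-fold (25.7 to 73.2) in TMEM16F KO and 27.4-fold (17.4 to 45.6) in vector control, and Ccl17, the other CCR4 ligand, 10.6-fold (8.15 to 13.9) in TMEM16F KO and 3.38-fold (2.93 to 3.90) in vector control. Ccl5, which attracts effector T cells, was 12.3-fold (10.7 to 14.1) in TMEM16F KO and 29.8-fold (24.6 to 36.5) in vector control. Of 15 cytokine and cytokine receptor genes 7 were higher. Il12b, the shared p40 chain of IL-12 and IL-23, was 8.91-fold (6.06 to 13.4) in TMEM16F KO and 7.17-fold (5.46 to 9.51) in vector control. Il15, which sustains killer T cells, was 2.96-fold in TMEM16F KO and 8.21-fold in vector control, and Il15ra, the receptor that presents it, 3.83-fold in TMEM16F KO and 5.13-fold in vector control. Il2ra, the IL-2 receptor alpha chain, was 3.95-fold in TMEM16F KO and 13.5-fold in vector control.

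The higher genes included ligands that stimulate and ligands that restrain T cells. Of 10 co-stimulatory genes 4 were higher and 2 lower. Cd40, the receptor through which helper T cells license dendritic cells, was 3.35-fold in TMEM16F KO and 3.83-fold in vector control, and Cd83, a maturation antigen, 2.39-fold in TMEM16F KO and 3.19-fold in vector control. Tnfsf9, the 4-1BB ligand, was 2.84-fold in TMEM16F KO and 5.5-fold in vector control. The B7 ligands Cd80 and Cd86 missed the 2-fold rule, with Cd80 at 1.88-fold in TMEM16F KO and 2.77-fold in vector control and Cd86 at 1.11-fold in TMEM16F KO and 1.47-fold in vector control. Of 15 regulatory genes 6 were higher and 2 lower. Cd274, encoding PD-L1, was 2.13-fold (1.76 to 2.59) in TMEM16F KO and 3.47-fold (2.82 to 4.27) in vector control. Pdcd1lg2, encoding PD-L2, was 4.74-fold in TMEM16F KO and 3.76-fold in vector control. Il4i1, an amino acid oxidase that restrains T cells, was 345-fold (60.8 to 13726) in TMEM16F KO and 111-fold (29.9 to 927) in vector control, on 1 TMEM16F KO and 2 vector control UMIs in the dendritic cells without Ccr7. Cd200 was 18.9-fold in TMEM16F KO and 26.1-fold in vector control and Socs2, a brake on cytokine signalling, 14.9-fold in TMEM16F KO and 17.9-fold in vector control.

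Of 18 NF-kappaB pathway genes 9 were higher and none lower, from both the canonical and the non-canonical arm. Relb was 5.94-fold (4.32 to 8.26) in TMEM16F KO and 14.3-fold (9.59 to 22.1) in vector control, and its partner Nfkb2 3.20-fold (2.13 to 4.83) in TMEM16F KO and 2.82-fold (1.75 to 4.60) in vector control. Map3k14, the kinase NIK that starts the non-canonical arm of Relb and Nfkb2, was 4.35-fold in TMEM16F KO and 3.48-fold in vector control. Birc2, a ubiquitin ligase of TNF receptor signalling, was 6.73-fold in TMEM16F KO and 8.94-fold in vector control, and Traf1, an adaptor of the same receptors, 3.96-fold in TMEM16F KO and 3.38-fold in vector control. Rel, a canonical subunit, was 2.58-fold in TMEM16F KO and 2.13-fold in vector control. Of 12 survival genes 4 were higher, among them Bcl2l14 at 10.9-fold in TMEM16F KO and 18.7-fold in vector control.

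Antigen handling did not move as 1 block. Cd74, the class II invariant chain, stayed within 2-fold, at 0.832-fold in TMEM16F KO and 0.789-fold in vector control. Genes of class II peptide loading were lower, with H2-DMa at 0.490-fold (0.413 to 0.578) in TMEM16F KO and 0.412-fold (0.347 to 0.487) in vector control and H2-DMb1 at 0.312-fold in TMEM16F KO and 0.263-fold in vector control. Marchf1, the ubiquitin ligase that takes class II off the surface and is shut down on maturation, was 0.180-fold in TMEM16F KO and 0.266-fold in vector control. In all, 1 of 15 class II genes was higher and 3 were lower. H2-M2, a nonclassical class I gene, was 38.3-fold in TMEM16F KO and at least 23.9-fold in vector control. Of 19 uptake receptors none was higher and 4 were lower, namely Mrc1, Fcgr3, Msr1 and Tlr4. None of 24 interferon response genes and none of 16 glycolysis and hypoxia genes met the 2-fold rule either way.

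Of 14 genes that mark the cDC1 branch 8 were lower in the members and none higher, and the list holds genes by which the dendritic cells without Ccr7 were chosen. Xcr1 had 1 UMI in TMEM16F KO and 0 in vector control members, against 51 TMEM16F KO and 32 vector control UMIs in dendritic cells without Ccr7, which were in part chosen by it. Wdfy4, needed for cross-presentation, had 8 UMIs in TMEM16F KO and 1 in vector control members, against 141 TMEM16F KO and 139 vector control UMIs in dendritic cells without Ccr7. Of 15 cDC2 genes 2 were lower and 13 met the rule in neither direction; the 2 were Cd209a, also a gene of that choice, and Clec10a. Summed over marker genes, 23 TMEM16F KO and 27 vector control members held more cDC2 than cDC1 UMIs, 6 in each held more cDC1 UMIs, and 11 TMEM16F KO and 15 vector control members held none of either. Each library had 5 members with 5 or more cDC1 marker UMIs. Of these, 5 in TMEM16F KO and 4 in vector control also held 5 or more cDC2 marker UMIs. Outside the lists, the genes highest over dendritic cells without Ccr7 in both libraries included Arl5c, a small GTPase, at 23.7-fold in TMEM16F KO and 14.1-fold in vector control, Mmp25, a membrane metalloprotease, at 12.0-fold in TMEM16F KO and 17.4-fold in vector control, and Serpinb9, the granzyme B inhibitor, at 11.5-fold in TMEM16F KO and 14.1-fold in vector control.

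**Figure D2:**
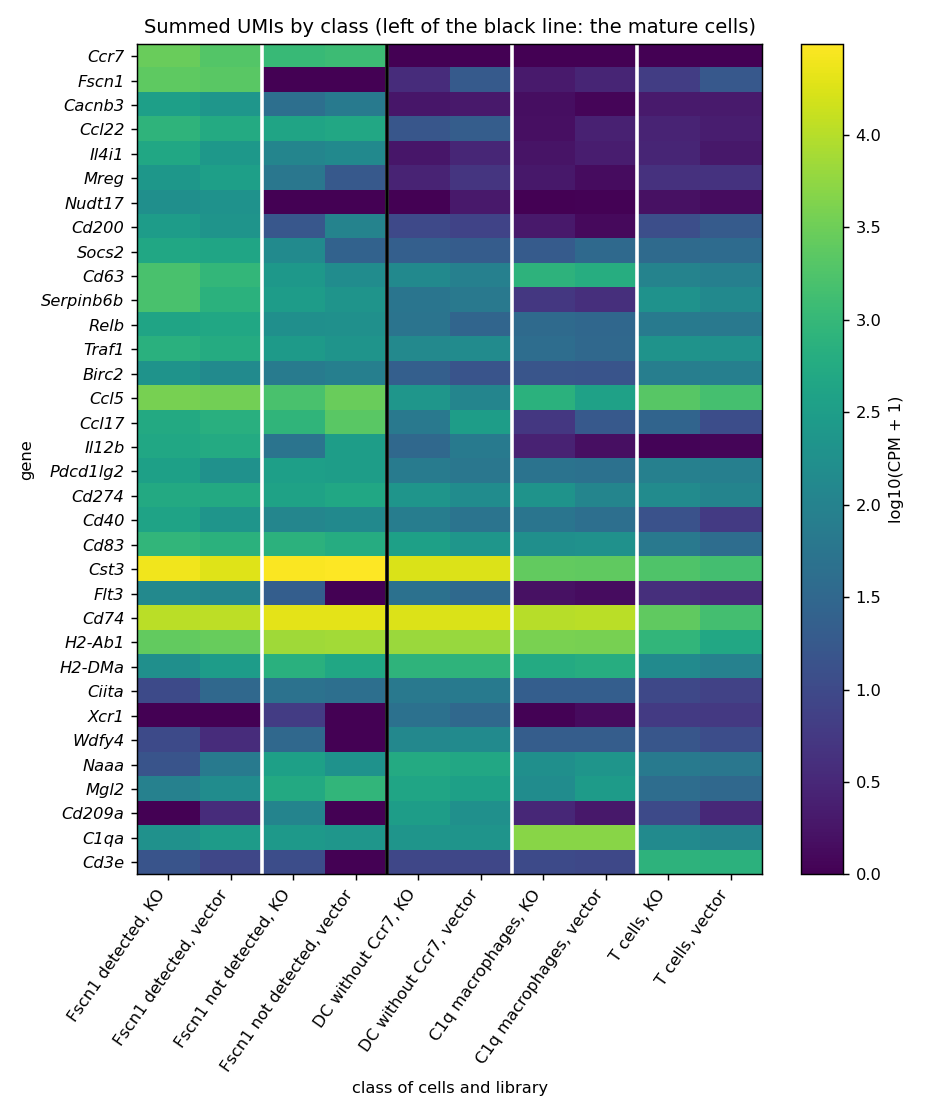
Levels of 34 genes as log10(CPM + 1) (colour) in 5 classes of cells, each with TMEM16F KO left of vector control: mature Ccr7 cells with Fscn1 detected, mature cells without it, dendritic cells without Ccr7, C1q macrophages and T cells; the black line divides mature cells from the others. Fscn1, Cacnb3 and Il4i1 are lower in dendritic cells without Ccr7 than in Fscn1-detected cells, while Cd74 is high in both kinds of dendritic cell. Fscn1 and Cacnb3 are rule genes, and Fscn1 is 0 by definition in mature cells without it.

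Because NF-kappaB drives maturation, the 250 bases before each RefSeq gene start were searched on both strands for the kappaB consensus, a motif of 10 bases. Of 27025 promoters, 4.46% held a match, and of 6533 promoters of genes measured here, 5.72%. Of the 279 promoters of genes higher in the members 12.2% held one (34), of the 465 of lower genes 5.81% (27). Of the 15 NF-kappaB pathway genes with an entry 7 held one, as did 3 of 10 chemokines, 2 of 14 regulatory genes, 1 of 16 migration genes and 0 of 6 co-stimulatory genes. The promoters below are of genes higher in the members: 2 NF-kappaB subunits whose genes carry the motif themselves, the PD-L2 gene, and Ramp3, a receptor activity modifying protein. Capitals mark the matches, and overlapping matches run together.
Nfkb2 (GRCm38.p6, chr19:46304487-46304736, plus strand): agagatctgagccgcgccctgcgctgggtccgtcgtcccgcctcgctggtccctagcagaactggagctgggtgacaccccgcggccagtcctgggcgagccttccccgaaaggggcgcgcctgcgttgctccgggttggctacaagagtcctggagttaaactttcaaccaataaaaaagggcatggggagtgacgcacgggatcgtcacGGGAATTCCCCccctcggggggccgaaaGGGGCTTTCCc
Rel (GRCm38.p6, chr11:23770970-23771219, minus strand): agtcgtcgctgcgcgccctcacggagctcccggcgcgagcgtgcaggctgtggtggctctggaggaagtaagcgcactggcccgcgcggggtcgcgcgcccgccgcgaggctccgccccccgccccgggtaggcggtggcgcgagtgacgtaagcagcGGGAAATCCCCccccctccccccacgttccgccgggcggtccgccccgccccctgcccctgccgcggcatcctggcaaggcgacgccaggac
Pdcd1lg2 (GRCm38.p6, chr19:29410669-29410918, plus strand): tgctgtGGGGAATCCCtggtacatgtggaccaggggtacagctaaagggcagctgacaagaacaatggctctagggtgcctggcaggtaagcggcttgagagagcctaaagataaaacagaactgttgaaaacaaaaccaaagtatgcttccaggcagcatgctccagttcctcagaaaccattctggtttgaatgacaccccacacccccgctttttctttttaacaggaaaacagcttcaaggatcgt
Ramp3 (GRCm38.p6, chr11:6658283-6658532, plus strand): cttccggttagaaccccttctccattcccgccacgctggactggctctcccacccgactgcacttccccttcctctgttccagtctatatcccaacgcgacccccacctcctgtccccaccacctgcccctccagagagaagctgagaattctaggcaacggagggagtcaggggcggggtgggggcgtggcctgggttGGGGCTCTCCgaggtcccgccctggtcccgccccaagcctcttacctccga
Nfkb2 has 3 matches in the promoter shown, 39 to 11 bases before the start, and 1 in each promoter of its other 2 starts. Rel has 2 overlapping ones beginning 92 and 91 bases before, while Ramp3 has 1 at 51 and Pdcd1lg2 1 at 244 bases. A match is a description of the letters, not a site of binding.

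The members varied among themselves, and many genes differed by whether Fscn1 was read. Fscn1 was read in 60.5% (44.4 to 75) of TMEM16F KO and 73.5% (58.9 to 85.1) of vector control members. This split was chosen after the values had been seen. Depth differed in opposite directions: median UMIs of cells with and without Fscn1 were 7880 and 10159 in TMEM16F KO, and 8110 and 7876 in vector control. The deepest vector control member, which held Bgn, Sox9 and Tm4sf1 UMIs, was Fscn1-detected and carried 16.1% of that subset's UMIs. The counts and folds of this split include it. Of 4378 genes measured in members, 231 (5.28%) were at least 2-fold higher in Fscn1-detected cells of both libraries and 141 (3.22%) lower.

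In Fscn1-detected cells 9 of 22 genes of the Ccr7 program were higher and none lower. Of 20 migration genes, Fscn1 itself among them, 9 were higher and 1 lower. Of 14 class II genes 3 were lower and none higher, and of 12 cDC2 genes 4 were lower and 1 higher. Cd63, a tetraspanin of endosomes, stood at 6.45-fold in TMEM16F KO and 6.19-fold in vector control in Fscn1-detected over the other members. Serpinb6b, a protease inhibitor, stood at 5.22-fold in TMEM16F KO and 3.48-fold in vector control. Cacnb3, a rule gene, was at 8.20-fold in TMEM16F KO and 3.36-fold in vector control, and Ccr7 at 2.77-fold in TMEM16F KO and 1.6-fold in vector control. Relb was at 2.43-fold in TMEM16F KO and 2.65-fold in vector control, and Traf1 at 2.56-fold in TMEM16F KO and 2.74-fold in vector control. Batf3, a transcription factor of cDC1, was at 3.67-fold in TMEM16F KO and 2.47-fold in vector control. All 38 TMEM16F KO and 73 vector control UMIs of Nudt17 lay in Fscn1-detected cells. In the other direction, Mgl2, a lectin of cDC2, had 91.3 CPM in Fscn1-detected and 529 CPM in the other TMEM16F KO members, and 154 CPM in Fscn1-detected and 901 CPM in the other vector control members. H2-Ab1 was at 0.369-fold in TMEM16F KO and 0.372-fold in vector control and Cd74 at 0.535-fold in TMEM16F KO and 0.559-fold in vector control.

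Il12b and Ccl17 were read in overlapping sets of members. Of the 43 TMEM16F KO members 8 had UMIs of both, 4 of Il12b alone, 16 of Ccl17 alone and 15 of neither. Of the 49 vector control members 10 had both, 6 Il12b alone, 21 Ccl17 alone and 12 neither. Of the Il12b-positive members 9 of 12 in TMEM16F KO and 13 of 16 in vector control also had Fscn1. The highest member held 32.9 Il12b UMIs per 10000 in TMEM16F KO and 31.2 in vector control.

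The comparison that the design sets up, TMEM16F KO over vector control, asks how host dendritic cells differ when the tumour cells lack the scramblase. A gene counts as higher or lower here when the ratio of CPM was at least 1.5 either way, its interval left out 1 and it had at least 20 UMIs over both libraries. Of 4378 genes measured in members, 230 (5.25%) were higher and 267 (6.1%) lower in TMEM16F KO, and 47.8% had a ratio above 1. The median of all genes was -0.02 on the log2 scale. Of the 267 lower genes, 36 had most of their UMIs in a single cell of vector control, 27 of them in the deepest one. Of the 230 higher genes 16 had most of theirs in a single TMEM16F KO cell. Without the deepest member of each library the count of higher and lower genes together was 321, against 497 with them.

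Ano6 itself had 0 UMIs in the 43 TMEM16F KO members, which allows up to 7.35 CPM, and 8 UMIs in 7 vector control members. In the other host cells it was read in both libraries, with a ratio of 0.8 in dendritic cells without Ccr7, 1.26 in C1q macrophages and 1.04 in T cells.

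**Figure D3:**
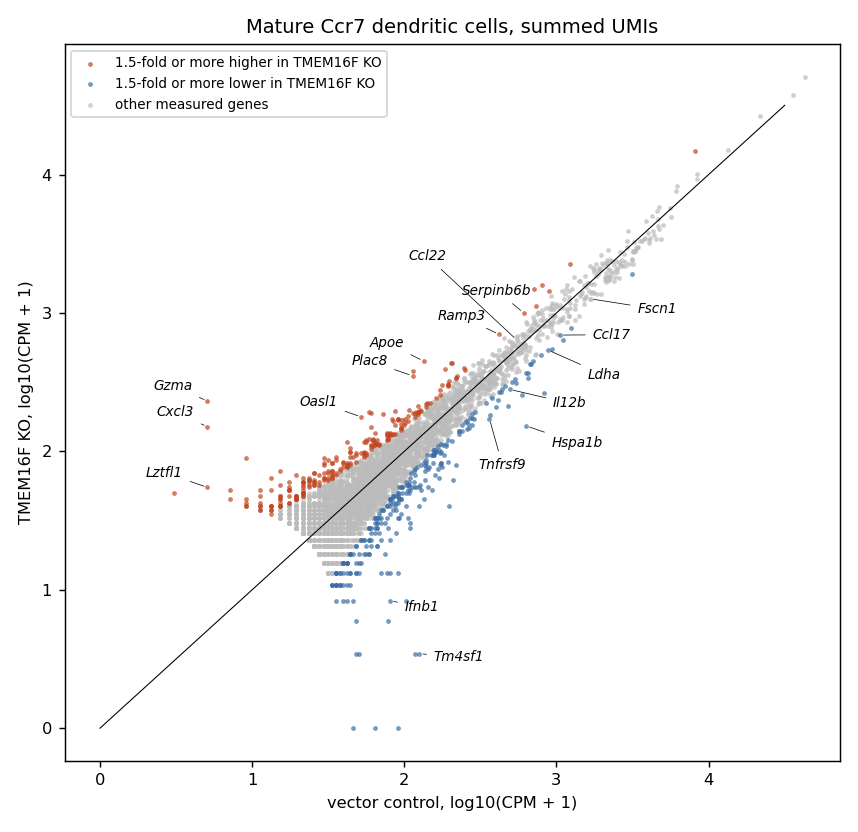
Level of each measured gene in mature Ccr7 dendritic cells, with log10(CPM + 1) in TMEM16F KO on the vertical axis and in vector control on the horizontal axis; each point is a gene and coloured points differ at least 1.5-fold with an interval that leaves out 1. Serpinb6b, Ramp3, Apoe and Oasl1 lie above the diagonal and Ccl17, Il12b, Tnfrsf9, Ldha and Hspa1b below it.

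The maturation program itself was split between the libraries. Of 22 measured genes of the Ccr7 program 4 were higher, 2 were lower and the median log2 ratio was 0.16. Serpinb6b had 1003 CPM in TMEM16F KO and 607 CPM in vector control, a ratio of 1.65 (95% interval 1.42 to 1.92). It was read in 34 of 43 TMEM16F KO and 38 of 49 vector control cells, and the ratio was 2.19 in Fscn1-detected and 1.46 in the other members. Ramp3 had 699 CPM in TMEM16F KO and 419 CPM in vector control, a ratio of 1.67 (1.39 to 2.01), with 2.39 in Fscn1-detected cells but 0.837 in the others. Rnf19b, a ubiquitin ligase, was at 1.58 (1.14 to 2.20) and Etv3, a transcriptional repressor, at 1.50 (1.11 to 2.05). Tnfrsf9, the receptor 4-1BB, had 172 CPM in TMEM16F KO and 362 CPM in vector control, a ratio of 0.474 (0.354 to 0.629). The ratio was 1.43 in Fscn1-detected cells and 0.0889 in the others. Nudt17, a nucleotide hydrolase, was at 0.625 (0.410 to 0.937). Without the deepest members Etv3 was at 1.40, and without members with a Cd3 UMI Nudt17 was at 0.832, both short of 1.5-fold.

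Migration genes were balanced, 10 of 20 above 1 with 1 higher and 2 lower. Fscn1 had 1265 CPM in TMEM16F KO and 1667 CPM in vector control, a ratio of 0.759 (0.678 to 0.848), and within Fscn1-detected members the ratio was 1.07. Ccr7 was at 1.19 (1.08 to 1.31). Cxcr4, the receptor for CXCL12, was at 1.73 (1.03 to 2.94) on 39 TMEM16F KO and 27 vector control UMIs. Anxa3 and Mreg were at 0.591 (0.437 to 0.794) and 0.600 (0.437 to 0.816), and in members without Fscn1 Mreg was at 3.45 (0.754 to 32.1), on 11 TMEM16F KO and 2 vector control UMIs. Without members with a Cd3 UMI Anxa3 was at 0.729 and Mreg at 0.75.

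Chemokines divided, with 1 of 15 higher and 3 lower. Ccl17 had 691 CPM in TMEM16F KO and 1052 CPM in vector control, a ratio of 0.657 (95% interval 0.566 to 0.761). The ratio was 0.786 in Fscn1-detected and 0.394 in the other members, and Ccl17 was also low in TMEM16F KO dendritic cells without Ccr7, at 0.210 (0.160 to 0.271), and in C1q macrophages, at 0.258 (0.195 to 0.337). Thinned to 3000 UMIs per cell, a Ccl17 UMI was found in 35.9% of 39 TMEM16F KO and 50% of 44 vector control members (unthinned 55.8% in TMEM16F KO and 63.3% in vector control), against 0.989% of TMEM16F KO and 2.05% of vector control C1q macrophages after thinning. Ccl22, the other CCR4 ligand, was at 1.17 (0.985 to 1.40) and Ccl5 at 0.845 (0.783 to 0.913). Cxcl2, a neutrophil attractant, was at 1.6 (1.41 to 1.82), with 173 UMIs in 1 TMEM16F KO and 123 in 1 vector control cell. Without the C1q limit of the rule the Cxcl2 ratio was 0.711. Ccl2 and Ccl12, monocyte attractants, were at 0.649 and 0.300, and Ccl2 at 1.66 without the deepest members.

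Of 12 cytokine genes none was higher and 3 were lower. Il12b had 279 CPM in TMEM16F KO and 492 CPM in vector control, a ratio of 0.568 (0.450 to 0.712). The highest vector control cells held 64 and 61 of its UMIs, and the highest TMEM16F KO cells 24 and 18. The Il12b ratio was 0.863 in Fscn1-detected and 0.170 in the other members, and 1.03 when members with a Cd3 UMI were left out. With the C1q limit lowered to 10 per 10000 UMIs Il12b was at 0.715 and Ccl17 at 0.783, short of 1.5-fold. The thinned shares of members with Il12b were 23.1% in TMEM16F KO and 25% in vector control. Ifnb1, interferon beta, had 3 UMIs in 3 TMEM16F KO cells and 39 UMIs in 5 vector control cells, a ratio of 0.0923 (0.0182 to 0.290). Of the 39, 21 lay in 1 vector control cell and 15 in another, and each other cell with Ifnb1 held 1. Il2ra had 13 UMIs in TMEM16F KO and 33 in vector control, a ratio of 0.473 (0.228 to 0.922). Il1b and Tnf were at 1.14 and 1.20.

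Ligands seen by T cells were mostly within 1.5-fold. Pdcd1lg2 had 348 CPM in TMEM16F KO and 221 CPM in vector control, a ratio of 1.58 (95% interval 1.22 to 2.05). The ratio was 1.86 in Fscn1-detected and 1.07 in the other members, and 1.40 without the deepest members. After thinning, a Pdcd1lg2 UMI was found in 56.4% (39.6 to 72.2) of TMEM16F KO and 31.8% (18.6 to 47.6) of vector control members (unthinned 81.4% in TMEM16F KO and 67.3% in vector control). Thinned dendritic cells without Ccr7 gave 20.6% in TMEM16F KO and 14.5% in vector control. The thinned shares were 12.1% in TMEM16F KO and 10.3% in vector control C1q macrophages, and 22.1% in TMEM16F KO and 22% in vector control T cells. Il4i1 was at 1.40 (1.07 to 1.83) and Cd274 at 0.899 (0.741 to 1.09), neither past 1.5-fold. Of 11 regulatory genes 2 had a ratio above 1, Pdcd1lg2 and Il4i1, and the median was -0.12. Of 7 co-stimulatory genes 1 was higher, Cd70, the CD27 ligand, with 19 UMIs in 3 TMEM16F KO cells and 8 UMIs in 8 vector control cells, a ratio of 2.85 (1.19 to 7.52) that was 1.02 as a mean over cells. Cd80, Cd86 and Cd40 were at 1.10, 1.03 and 1.35 (1.02 to 1.79). None of 18 NF-kappaB genes (median 0.09) and none of 10 survival genes (median 0.03) was past 1.5-fold, and Relb was at 0.775 (0.615 to 0.975).

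Class II genes leaned to the TMEM16F KO side by small amounts. Of 14 class II genes 12 had a ratio above 1, with a median log2 ratio of 0.26, and only H2-DMb2 was past 1.5-fold, at 1.55 (1.19 to 2.01). Cd74 was at 1.13 (1.09 to 1.17), with 0.959 in Fscn1-detected and 1.00 in the other members, so the pooled ratio lay above that of either subset. H2-Eb1 was at 1.25 and Ifi30, a lysosomal reductase, at 1.32. H2-Ab1 was at 1.19, and at 0.999 without the deepest members. Of 17 class I genes 10 had a ratio above 1, with a median log2 ratio of 0.03, and 1 was past 1.5-fold. It was Tap2, a peptide pump subunit, at 1.56 (1.05 to 2.35). Without the deepest members H2-DMb2 was at 1.30 and Tap2 at 1.47. Of 6 measured cDC1 genes 2 were higher and none lower, and of 12 cDC2 genes 4 were higher and 1 lower. Clec9a, the cDC1 receptor for dead cells, had 21 UMIs in 12 TMEM16F KO cells and 8 in 7 vector control cells, a ratio of 3.15 (1.34 to 8.22). Sirpa, a cDC2 receptor that reads CD47, had 37 UMIs in TMEM16F KO and 22 in vector control, a ratio of 2.02 (1.16 to 3.59). Without members with a Cd3 UMI Clec9a was at 1.91 and Sirpa at 1.49, neither past the rule. Of Cd209a, 18 of the 20 TMEM16F KO UMIs lay in 1 cell, against 1 UMI in vector control.

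**Figure D4:**
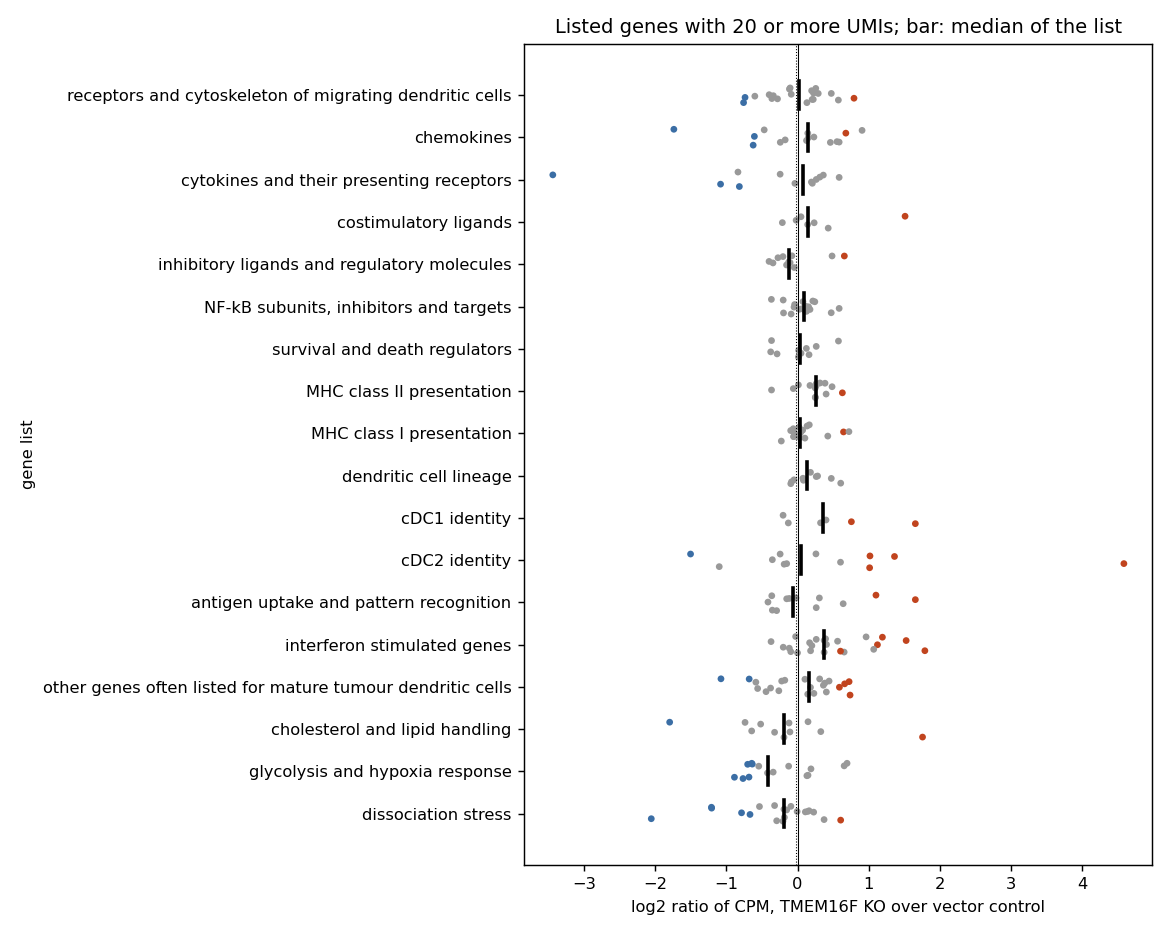
Log2 ratio of TMEM16F KO over vector control (axis held between -4 and 5) of the measured genes of each role list in mature Ccr7 dendritic cells; orange-red points were higher and blue points lower by at least 1.5-fold with an interval that leaves out 1, grey points were neither, bars are list medians and the dotted line is the median of all genes. The interferon response list has 5 orange-red and no blue points, and the glycolysis and hypoxia list 6 blue and no orange-red points.

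Of 23 measured interferon response genes 17 had a ratio above 1, 5 were higher and none lower, with a median log2 ratio of 0.37. Among Fscn1-detected members alone the median was -0.07, and among the others 0.64. The summed level of the list was 3547 CPM in TMEM16F KO and 2838 CPM in vector control members, and 3783 CPM in TMEM16F KO and 2922 CPM in vector control dendritic cells without Ccr7. In C1q macrophages it was 2996 CPM in TMEM16F KO and 2343 CPM in vector control, and in T cells 2170.4 CPM in TMEM16F KO and 1806 CPM in vector control. Oasl1, an antiviral protein, had 176 CPM in TMEM16F KO and 51.1 CPM in vector control, a ratio of 3.46 (95% interval 2.17 to 5.69), read in 17 of 43 TMEM16F KO and 11 of 49 vector control cells. The highest TMEM16F KO cells held 23, 12 and 11 of its UMIs, and the median was 0 in both libraries. In Fscn1-detected members the ratio was 0.847, and in the others 37.7 (6.51 to 1513), on 60 TMEM16F KO and 1 vector control UMIs. Stat2 had 24 UMIs in TMEM16F KO and 10 in vector control and a ratio of 2.88 (1.33 to 6.75). Ifi47, a GTPase, was at 2.18, and Ifit2, a sensor of foreign RNA, at 2.29 over summed UMIs but 0.989 as a mean over cells. Isg15, a ubiquitin-like protein, was at 1.33 (1.15 to 1.53). Ifnb1, an inducer of these genes, had a ratio below 1 that rested on few vector control cells, as given above.

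Glycolytic enzymes were lower in TMEM16F KO members. Of 15 measured glycolysis and hypoxia genes 5 had a ratio above 1, none was higher and 6 were lower, with a median log2 ratio of -0.42. The lower genes were 4 enzymes of glycolysis, the lactate enzyme Ldha and Bnip3, a mitophagy receptor of hypoxic cells. Ldha had 539 CPM in TMEM16F KO and 877 CPM in vector control, a ratio of 0.615 (0.521 to 0.726). Pgk1 had 451 CPM in TMEM16F KO and 701 CPM in vector control, a ratio of 0.644 (0.535 to 0.772). Pgam1, Eno1 and Pkm were at 0.588 (0.480 to 0.717), 0.623 (0.516 to 0.751) and 0.640 (0.530 to 0.771). The 5 enzymes were at 0.515 to 0.612 in Fscn1-detected and 0.443 to 0.617 in the other members. In Fscn1-detected members without the deepest vector control cell, which is one of them, an alternative added after seeing the data, the ratios were 0.784 to 0.898, none past 1.5-fold, and the list median was -0.15. In other cells of the libraries the ratios were 0.849 to 1.09 in dendritic cells without Ccr7, 0.925 to 1.13 in C1q macrophages and 0.925 to 1.06 in T cells. Without the deepest member of each library they were 0.655 to 0.767, and only Pgam1 of the 5 stayed past 1.5-fold. With the C1q limit lowered to 10 per 10000 UMIs they were 0.672 to 0.926 and none of the 5 was past it. Gapdh was at 0.789 (0.735 to 0.847), while Hif1a and Vegfa, the hypoxia factor and its angiogenic target, were at 1.57 (0.971 to 2.58) and 1.62 (0.875 to 3.05).

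**Figure D5:**
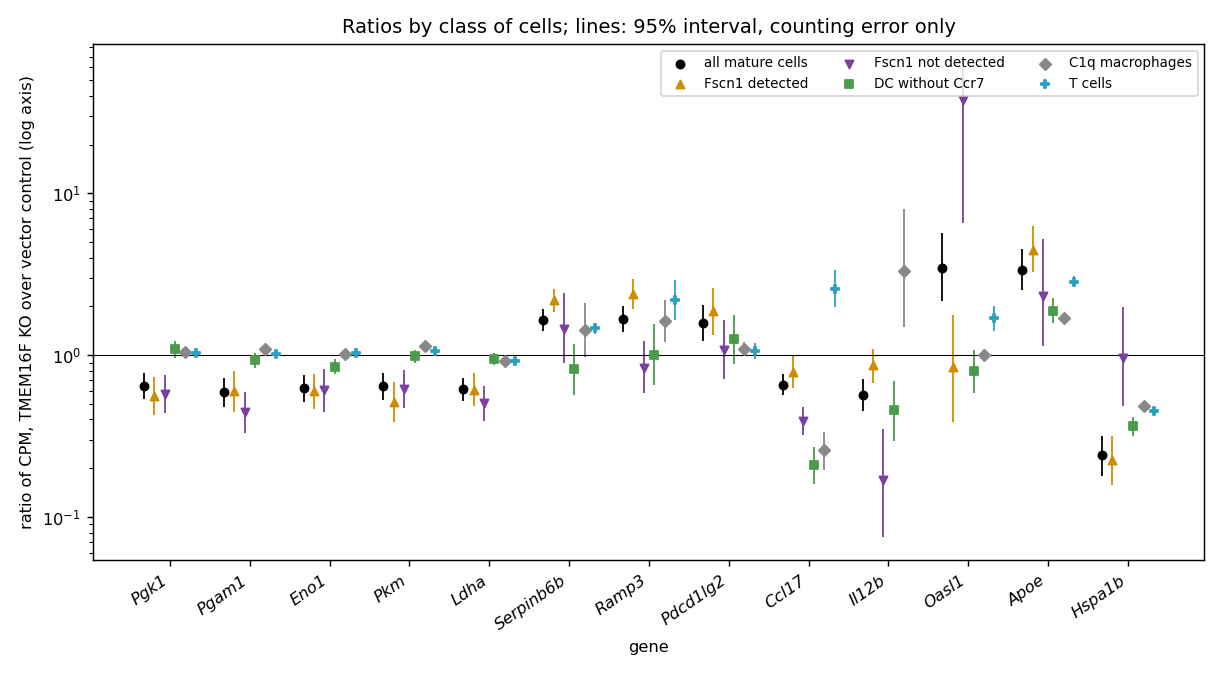
Ratio of TMEM16F KO over vector control (logarithmic axis) of 13 genes in mature Ccr7 dendritic cells, their subsets with and without Fscn1, dendritic cells without Ccr7, C1q macrophages and T cells; points need at least 20 UMIs and bars are 95% intervals for counting error. The 5 glycolytic enzymes lie below 1 in the mature cells and near 1 in the other classes, while Apoe lies above 1 and Hspa1b below 1 outside the mature cells too.

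Stress and handling genes and transcripts of other cells also differed, and their part in the results above was not tested. Of 20 immediate early and heat shock genes 1 was higher and 5 lower. Hspa1a and Hspa1b, inducible heat shock proteins, were at 0.433 (0.343 to 0.544) and 0.241 (0.180 to 0.317), and the same genes were low in the other TMEM16F KO cells: 0.349 and 0.362 in dendritic cells without Ccr7, 0.541 and 0.482 in C1q macrophages, 0.460 and 0.455 in T cells. In members without Fscn1 Hspa1a was at 1.79 and Hspa1b at 0.963. Of 11 measured macrophage markers 3 were higher and 1 lower. Apoe, a lipid carrier of macrophages, had 449 CPM in TMEM16F KO and 133 CPM in vector control, a ratio of 3.38 (2.53 to 4.55), with 96 of 183 TMEM16F KO UMIs in 1 cell. It was higher in every other class too, with 1.88 in dendritic cells without Ccr7, 1.70 in C1q macrophages and 2.84 in T cells. Lyz2, lysozyme, was at 1.98 (1.75 to 2.25), and at 1.26 without members with a Cd3 UMI, and Plac8, a gene of monocytes, at 3.12 (2.27 to 4.34). Of the NK markers, 92 of the 94 TMEM16F KO Gzma UMIs lay in 1 cell.

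Outside the lists, the genes with the largest ratios rested on few cells. Cxcl3, a neutrophil attractant, had 60 of its 61 TMEM16F KO UMIs in 1 cell. Of the 10 genes lowest in TMEM16F KO all had most of their vector control UMIs in 1 cell, 9 of them in the deepest. Lztfl1, a regulator of ciliary transport, was spread over more cells, with 22 UMIs in 11 TMEM16F KO members and 2 UMIs in 2 vector control members, a ratio of 13.2 (3.24 to 116). It was read in 25.6% of TMEM16F KO and 4.08% of vector control members. The shares were 16.3% in TMEM16F KO and 22% in vector control dendritic cells without Ccr7, and 21.7% in TMEM16F KO and 16.2% in vector control C1q macrophages. T cells gave 12.9% in TMEM16F KO and 16.2% in vector control, so the vector control members were the lowest class and the TMEM16F KO members the highest. After thinning, the shares were 15.4% in TMEM16F KO and 2.27% in vector control members, and 4.94% to 7.89% in the other classes. Slpi, a secreted protease inhibitor, had 36 UMIs in TMEM16F KO and 4 in vector control, a ratio of 10.8 (3.87 to 41.8), and was at 11 in dendritic cells without Ccr7.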

How the data were processed

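The authors deposited 2 matrices of raw UMI counts per gene and cell barcode (10x Genomics 3′ libraries, 34290 genes each), made with Cell Ranger 8.0.0 as the file headers record. The submitters' processing notes name mm10 as the build and Seurat 3.1.1. The study states 10782 cells, and the matrices hold 11246 barcodes. No further filter was applied beyond the rule that defines the members and the other classes. C1q macrophages had at least 40 C1q UMIs per 10000, and T cells had at least 3 Cd3 UMIs and under 10 C1q UMIs per 10000, both without Ccr7. Dendritic cells without Ccr7 also had at least 20 UMIs per 10000 of Cd74, H2-Aa, H2-Ab1 and H2-Eb1 together and no Siglech.

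UMIs were summed per class and library and scaled to CPM. Shares have exact Clopper-Pearson intervals and ratios exact conditional binomial intervals, at 95%. Against a sum of 0 UMIs a fold was bounded with a floor of 3 UMIs. Shares of cells with a UMI were repeated after thinning each cell to 3000 UMIs, which left out 4 TMEM16F KO and 5 vector control members. Doublets were scored with Scrublet in scanpy 1.11.5, and the top scores at 0.8% per 1000 barcodes (287 TMEM16F KO and 221 vector control barcodes, with 0 and 1 members among them) were left out in an alternative only. The call rule was tested on simulated counts with counting error alone, so that test leaves out the spread between cells. Python 3.11.15, numpy 2.4.6, scipy 1.17.1, pandas 2.3.3 and matplotlib 3.10.9 were used. Gene coordinates are from GENCODE and promoters from RefSeq (GRCm38.p6).

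The members and the 29 gene lists were chosen with earlier results of these data known. Genes named were list members, the 10 largest ratios either way between libraries outside the lists, and the 15 largest folds either way against dendritic cells without Ccr7. Rnf126, Mt1 and Mt2 were named after their values had been seen. Alternatives changed each limit of the rule, the scaling, the UMI minimum per gene, the deepest cells and, added after seeing the data, the Fscn1 subsets, with and without the deepest cells. Some genes are not reported here.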

Additional observations from a re-analysis of the deposited data

Results flagged for a closer look

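For a pair of genes the TMEM16F KO over vector control ratio pointed one way in mature Ccr7 dendritic cells and the other way in dendritic cells without Ccr7. Tnfrsf9 had a ratio of 0.474 (0.354 to 0.629; 70 UMIs in TMEM16F KO and 177 in vector control) in the mature cells and 1.93 (1.27 to 2.99; 73 UMIs in TMEM16F KO and 34 in vector control) in dendritic cells without Ccr7. Fos, an immediate early transcription factor, had 0.630 (0.548 to 0.722; 318 UMIs in TMEM16F KO and 606 in vector control) in the mature cells and 1.55 (1.44 to 1.68; 1832 UMIs in TMEM16F KO and 1062 in vector control) in dendritic cells without Ccr7. With 1 library per group the difference between the classes was not tested. Without the deepest member of each library the Fos ratio in the mature cells was 0.799. In Fscn1-detected mature cells alone the Tnfrsf9 ratio was 1.43, the same direction as in dendritic cells without Ccr7. Of 473 genes past 1.5-fold in the mature cells and measured in dendritic cells without Ccr7, 67 were past it the same way there and 17 the opposite way. The share of all genes past 1.5-fold in dendritic cells without Ccr7 is not given here, so these counts cannot be set against it.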

How the results depend on the processing

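No paired analysis was possible because each group has 1 library. Both shares of members kept intervals that reach 1 under all rule limits tried. The share ratio among barcodes was 0.579 (0.306 to 1.08) over barcodes with a Ptprc UMI. The ratio among members and dendritic cells without Ccr7 was 1.05 without the C1q limit. The count of genes past 1.5-fold, 497, fell to 330 with a marker sum of at least 3, 313 with C1q under 10 per 10000, 321 without the deepest members, 291 with at least 50 UMIs per gene, 245 in members without Fscn1 and 299 in Fscn1-detected members without the deepest ones. Of these, 244, 204, 265, 291, 90 and 158 genes were among the 497. The 963 genes past 2-fold against dendritic cells without Ccr7 became 619 with at least 50 UMIs per gene and 628 after thinning to 3000 UMIs, of which 619 and 336 were among the 963. Of 1437 ratios of 72 genes under these settings, 68 lay on the other side of 1. Of these, 47 were of 17 genes within 1.5-fold to begin with and 21 of genes past it, and the 21 had these log2 ratios. Cxcl2 was at -0.49 without the C1q limit. Members without a Cd3 UMI gave Cxcl3 -1.39, Il12b 0.043 and Clec4n -0.22. Fscn1-detected members gave Tnfrsf9 0.51, Oasl1 -0.24 and Clec4n -0.26, and without the deepest ones Tnfrsf9 0.28, Oasl1 -0.30, Clec4n -0.14 and Bnip3 0.39. Members without Fscn1 gave Ramp3 -0.26, Mreg 1.79, Hspa1a 0.84, Gzma -2.26 and Ms4a7 -0.67. Tm4sf1 was at 0.17 with a marker sum of at least 3, 0.10 with C1q under 10 per 10000 and 0.18 without the deepest members. Ifit2 was at -0.015 as a mean over cells and Cd209a at -0.073 with a marker sum of at least 1. The cause of these shifts was not tested. List medians stayed below 0 for glycolysis and hypoxia (-0.72 to -0.14) and above 0 for class II genes (0.02 to 0.31). All values rest on 43 TMEM16F KO and 49 vector control cells, and the intervals leave out the spread between tumours.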

Other observations

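Metallothioneins, small metal-binding proteins, were low in TMEM16F KO mature Ccr7 dendritic cells. Mt1 had 107 UMIs in TMEM16F KO and 405 in vector control, a ratio of 0.317 (0.254 to 0.393), and 0.450 without the deepest members. Mt2 had 16 UMIs in TMEM16F KO and 96 in vector control, a ratio of 0.2 (0.110 to 0.342), and 0.317 without the deepest members. In dendritic cells without Ccr7 the ratios were 0.784 (0.690 to 0.890) for Mt1 and 0.641 (0.455 to 0.898) for Mt2. Rnf126, a ubiquitin ligase, had 5 UMIs in 4 TMEM16F KO members and 34 UMIs in 20 vector control members, a ratio of 0.176 (0.0539 to 0.453), while dendritic cells without Ccr7 stood at 0.884. All 3 genes were chosen after their values had been seen.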
